A study of Mus musculus with 6 samples.

Results

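The genes described here encode the interferon-inducible catalytic subunits of the proteasome (Psmb8, Psmb9 and Psmb10), its thymic catalytic subunit (Psmb11) and the chains of the PA28 activator (Psme1 and Psme2). They were taken by symbol from the deposited count table, and all 6 were found among its 23420 genes. The table holds 6 libraries of polyadenylated RNA from cultured bone marrow-derived mesenchymal stromal cells (MSCs), grown out from the femurs of young adult female C57BL/6 mice in AMEM with serum. The 3 libraries of the control group, called Ctl MSC, came from cells that received the empty AP2 retroviral backbone with eGFP. The 3 libraries of the MSC-TPr group came from cells that received the same backbone carrying the mouse thymoproteasome subunits β1i, β2i and β5t (encoded by Psmb9, Psmb10 and Psmb11), joined by viral self-cleaving peptide sequences, and the labels give no interferon treatment. The labels give no mouse or culture for a library, so the p-values below measure only the spread between these libraries, which may be technical. The question addressed is how much RNA of each subunit every library held, and whether these amounts followed the label or the interferon state of the library.

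The proteasome degrades proteins in a barrel whose inner rings hold the catalytic subunits β1, β2 and β5, encoded in most cells by Psmb6, Psmb7 and Psmb5. Interferon-γ induces β1i, β2i and β5i (Psmb9, Psmb10 and Psmb8), which take the places of these subunits in newly assembled immunoproteasomes and favour peptides that bind MHC class I. Cortical epithelial cells of the thymus make β5t (Psmb11) in the place of β5i, which gives the thymoproteasome, and PA28α and PA28β (Psme1 and Psme2) form a ring that caps the barrel and opens it. Several of these genes and many antiviral genes are induced through interferon-responsive promoter elements, namely the interferon-stimulated response element (ISRE), bound by IRF factors, and the γ-activated site (GAS).

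The genes lie close together in part. On mm10, Psmb8 (chr17:34197721-34201454, plus strand) and Psmb9 (chr17:34181987-34187764, minus strand) lie 9957 bases apart in the MHC with Tap1 between them, and exons of Psmb9 overlap exons of Tap1 on the opposite strand. Psme1 (chr14:55578123-55581529, plus strand) and Psme2 (chr14:55587441-55591113, minus strand) lie 5912 bases apart. Psmb11 (chr14:54621433-54629556, plus strand) lies 3411 bases from Psmb5, and Psmb10 stands alone at chr8:105935735-105938444 on the minus strand. Exons of Psmb8 overlap those of Gm20496, and exons of Psme1 those of Emc9, both on the opposite strand. The library kit keeps the strand, but whether the counting used it is not given in the sources used here, so reads of such partners may not be told apart. Psme2 has a near-identical copy, Psme2b, which was not analysed here, and the count of Psme2 is uncertain for that reason.

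Promoter sequences (250 bases before to 50 after the start, RefSeq, GRCm38.p6) were found for all 6 genes. They were searched on both strands for the ISRE core GAAANNGAAA and the GAS motif TTCNNNGAA, and matches may overlap. The ISRE core was in 3.44% and the GAS motif in 8.3% of all 32851 promoter windows. Of the 6 genes, 1 had the ISRE core (Psme1) and 1 had the GAS motif (Psmb8). Of the 18 antiviral interferon-stimulated genes with a promoter in the table, 10 had the ISRE core, and of 17 interferon-γ response genes, 11 had the ISRE core and 8 the GAS motif. The promoters of both matching genes are shown with that of Psmb10, a transduced gene without a match, and that of Ifit3, an antiviral gene with 2 ISRE cores. Capitals mark the matches, written 5′ to 3′ on the strand of the gene, so the ISRE core appears in its reverse complement form in Psme1 and Ifit3.
Psmb8, chr17:34197945-34198244, plus strand: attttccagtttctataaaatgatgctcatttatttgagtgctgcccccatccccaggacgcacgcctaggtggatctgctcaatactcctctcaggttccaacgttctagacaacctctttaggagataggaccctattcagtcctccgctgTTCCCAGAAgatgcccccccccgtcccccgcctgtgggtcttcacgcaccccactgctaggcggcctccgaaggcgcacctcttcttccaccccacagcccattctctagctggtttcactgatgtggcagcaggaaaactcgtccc
Psme1, chr14:55578244-55578543, plus strand: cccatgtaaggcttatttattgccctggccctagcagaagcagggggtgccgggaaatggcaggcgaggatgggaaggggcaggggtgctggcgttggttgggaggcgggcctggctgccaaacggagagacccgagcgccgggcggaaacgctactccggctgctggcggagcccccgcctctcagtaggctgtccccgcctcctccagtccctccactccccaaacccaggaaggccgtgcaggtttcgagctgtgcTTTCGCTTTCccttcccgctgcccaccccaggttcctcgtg
Psmb10, chr8:105938343-105938642, minus strand: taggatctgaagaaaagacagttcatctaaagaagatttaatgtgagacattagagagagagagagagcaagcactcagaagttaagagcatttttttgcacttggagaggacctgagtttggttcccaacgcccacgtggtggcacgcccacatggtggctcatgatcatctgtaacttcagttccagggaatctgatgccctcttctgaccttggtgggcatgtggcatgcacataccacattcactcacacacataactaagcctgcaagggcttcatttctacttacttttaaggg
Ifit3, chr19:34583279-34583578, plus strand: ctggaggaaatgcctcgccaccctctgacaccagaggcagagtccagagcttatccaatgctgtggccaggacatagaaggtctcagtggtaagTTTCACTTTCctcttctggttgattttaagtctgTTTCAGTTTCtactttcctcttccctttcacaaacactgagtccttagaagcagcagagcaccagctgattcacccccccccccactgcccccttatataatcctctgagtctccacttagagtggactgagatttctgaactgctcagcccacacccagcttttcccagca
A match is a description of these letters and no test of binding, and the windows without one may hold other forms of the same elements. The constitutive genes Psmb5 and Psmb6 had neither motif in this window. Both carried the antioxidant response core TGACNNNGC, which was in 12.4% of all windows and in 0 of the 6 genes described here. No window was matched for Psmb7.

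Between 16158756 and 22158887 reads per library fell on genes, and 3 reads, taken as the smallest detectable amount, were 0.141 to 0.180 CPM (counts scaled to library size by TMM). Values of single libraries are given in the order of their numbers. Of the mesenchymal marker genes, 9 of 10 had at least 3 reads in every library, while Thy1 (CD90) had 0 reads in 5 libraries and 1 read in Ctl MSC 1. Other cells that carry these subunits were looked for in every library. The summed level of haematopoietic and macrophage markers was 11.3 to 17.7 CPM, with Ptprc (CD45) at 0 reads except for 0.0937 CPM in MSC-TPr 3. Single markers of this list differed between libraries within that sum. Cd14 stood at 11.6, 3.34 and 3.54 CPM for Ctl MSC 1 to 3 and 3.29, 13.1 and 11.2 CPM for MSC-TPr 1 to 3, and Csf1r had 12, 1 and 1 reads against 0, 13 and 18 reads, so that both were high in the libraries where the subunit genes below were high. Cd68 went the other way, with 1.62, 9.58 and 7.41 CPM against 14.3, 1.65 and 0.797 CPM. Over the libraries numbered 2 and 3 all 3, the only genes of this list of 13 that were tested, were called. Their log2 fold changes were 3.74 for Csf1r, 1.81 for Cd14 and −2.83 for Cd68, with edgeR adjusted p from 0.00113 to 0.00401. Of all genes tested over these libraries, 20.6% were called higher and 19.4% lower. The part of these 3 markers in the results below was not tested. The cortical thymic epithelial list, summed at 85.6 to 195 CPM, rested on Ly75 and Ccl25, while Foxn1, which specifies that epithelium, measured 0 to 0.529 CPM and Dll4 and Epcam were at 0 in all 6 libraries. Ctl MSC 1 and MSC-TPr 1 stood apart from the other libraries of their labels. The mean log2 CPM of a list of 20 cell division genes came to 6.51, 3.20 and 3.20 for Ctl MSC 1 to 3 and 3.23, 6.40 and 6.50 for MSC-TPr 1 to 3. Each result below is therefore given over all 6 libraries and over the 4 libraries numbered 2 and 3. In those 4, the label and the level of cell division cannot be told apart.

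The transduced genes were examined first. Psmb11 (β5t) had 2, 4 and 2 reads for Ctl MSC 1 to 3 and 4, 6 and 1 reads for MSC-TPr 1 to 3, that is 0.120, 0.212 and 0.111 CPM against 0.223, 0.353 and 0.0469 CPM. The highest and the lowest library both carried the label MSC-TPr, and the groups overlapped. Summed over libraries there were 8 reads in Ctl MSC and 11 in MSC-TPr, a ratio of rates of 1.31 with an exact 95% interval of 0.481 to 3.76 that covers counting error only. The log2 CPM differed by 0.19 between the labels (exact two-sided permutation p = 0.7, where 3 libraries against 3 cannot go below 0.1). No difference in the Psmb11 count was therefore detected, and differences within that interval could not be seen from so few reads. No library held more than 6 reads on Psmb11, and the library with 6, MSC-TPr 2, had an upper 95% counting limit of 0.768 CPM.

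Psmb9 (β1i) was the lowest of the inducible subunits. It measured 3.35, 0.794 and 0.830 CPM for Ctl MSC 1 to 3, from 56, 15 and 15 reads, and 0.558, 1.24 and 1.22 CPM for MSC-TPr 1 to 3, from 10, 21 and 26 reads. Ctl MSC 1 was the highest library, MSC-TPr 1 the lowest, and the groups overlapped. Psmb10 (β2i) measured 27.5, 8.74 and 8.41 CPM for Ctl MSC 1 to 3 and 9.03, 17.2 and 15.4 CPM for MSC-TPr 1 to 3. MSC-TPr 1 lay beside Ctl MSC 2 and 3, and MSC-TPr 2 and 3 lay between these and Ctl MSC 1. Over all 6 libraries the log2 fold change (log2FC) of MSC-TPr over Ctl MSC was −0.73 for Psmb9 (SE 0.686, edgeR adjusted p = 0.668) and −0.11 for Psmb10 (SE 0.533, edgeR adjusted p = 0.939). None of the 3 genes of the construct was thus separated by the label. The sequence of the construct, which would tell whether its transcript is counted on these genes, is not given in the sources used here. The authors report that they checked transduction by eGFP and by immunoblots of the subunits, which measure protein and not the RNA counted here. In the cell division list, Ctl MSC 1 lay with MSC-TPr 2 and 3, and MSC-TPr 1 lay with Ctl MSC 2 and 3. In Psmb9 and Psmb10, MSC-TPr 2 and 3 lay between Ctl MSC 1, which was well above them, and the other libraries. Both interferon lists described further on separated the labels as given. Whether the libraries numbered 1 carry the right labels was not tested, and an exchange of these libraries would turn the sign given over 6 libraries for Psmb8, Psmb9, Psmb10, Psme1 and Psme2 and would make the groups of both interferon lists overlap. Libraries are therefore named by their labels throughout, and each direction is one between library labels.

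Psmb8 (β5i), the inducible subunit that the construct does not carry, had the same highest and lowest library as Psmb9. It measured 13.6, 4.45 and 4.76 CPM for Ctl MSC 1 to 3 and 2.62, 5.71 and 8.20 CPM for MSC-TPr 1 to 3. The highest library was 5.21 times the lowest, and the libraries labelled MSC-TPr spanned the values of Ctl MSC 2 and 3. The group means were 7.62 ± 5.22 CPM (Ctl MSC) and 5.51 ± 2.80 CPM (MSC-TPr), with SD and n = 3 in each. Its log2FC over 6 libraries was −0.48 (SE 0.591, edgeR adjusted p = 0.755).

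The PA28 genes were the most abundant of the set and varied less. Psme1 (PA28α) measured 63.7, 30.2 and 30.9 CPM for Ctl MSC 1 to 3 and 28.9, 44.6 and 50.6 CPM for MSC-TPr 1 to 3. Psme2 (PA28β) measured 105, 41.1 and 44.2 CPM and 48.2, 60.8 and 63.5 CPM in the same order. For both genes Ctl MSC 1 was the highest library, with the highest 2.20 times the lowest for Psme1 and 2.56 times for Psme2, and the groups overlapped. The number of Psme2 reads for each Psme1 read stayed between 1.26 and 1.67 over the libraries. The log2FC over 6 libraries was −0.02 for Psme1 (SE 0.366, edgeR adjusted p = 0.985) and −0.16 for Psme2 (SE 0.387, edgeR adjusted p = 0.883).

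**Figure D1:**
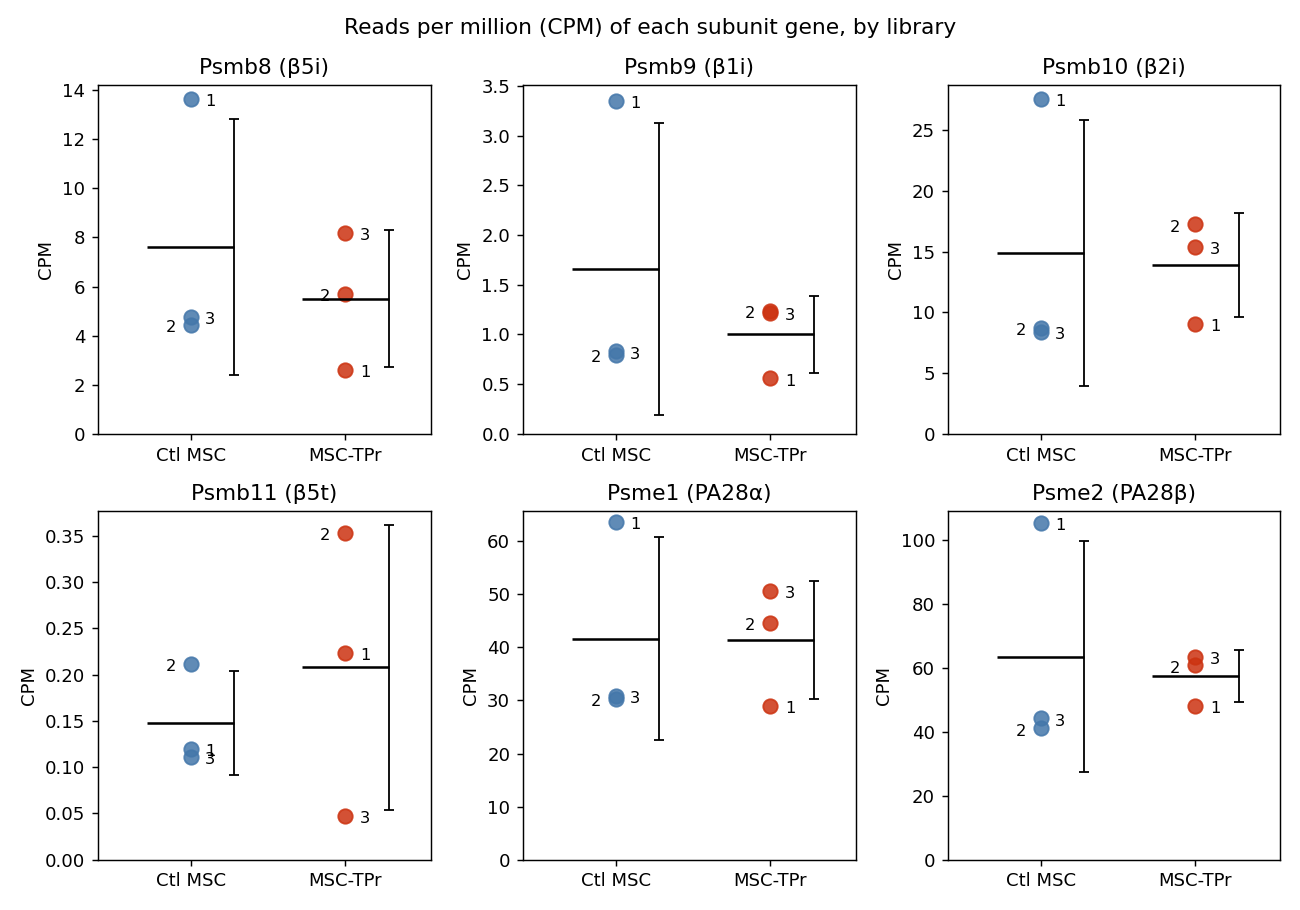
CPM of each of the 6 genes (vertical axes, each starting at 0) by library label (horizontal axis). Points are single libraries with their number, lines are group means and bars are 1 SD (n = 3). Ctl MSC 1 is the highest library for every gene but Psmb11, and the labels overlap in all 6 panels.

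Of the 5 genes that passed the filter on low counts, 0 were called between the labels over 6 libraries (edgeR's quasi-likelihood test, adjusted p under 0.05 with a log2FC past 0.5 or below its negative), where 0.426% of the 11974 genes tested were called. None of the 5 had an unadjusted p under 0.05, where 1801 of the 11974 genes tested did. DESeq2 also called 0 of them, beside 683 of 16807 genes. All 5 log2FC values were negative with a median of −0.16, beside a median of 0.01 over all genes tested. Groups that do not overlap occurred for 0 of the 6 genes and for 22.9% of all genes tested.

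The libraries numbered 2 and 3 gave the opposite sign. Over these 4, Psmb10 was higher in the libraries labelled MSC-TPr, from 8.57 ± 0.233 to 16.3 ± 1.32 CPM (SD, n = 2 each), a log2FC of 0.92 (SE 0.156, edgeR adjusted p = 0.00547). Psme1 rose from 30.5 ± 0.443 to 47.6 ± 4.23 CPM, a log2FC of 0.63 (SE 0.121, edgeR adjusted p = 0.00838), and Psme2 from 42.7 ± 2.23 to 62.2 ± 1.90 CPM, a log2FC of 0.54 (SE 0.113, edgeR adjusted p = 0.0116). Psmb8 and Psmb9 had log2FC values of 0.60 (SE 0.231, edgeR adjusted p = 0.0793) and 0.59 (SE 0.307, edgeR adjusted p = 0.164) and were not called. These 3 of 5 genes called higher stand beside 20.6% of the 12122 genes tested over the 4 libraries. Ctl MSC 2 and 3 were much closer to each other than any other 2 libraries. The chi-square per gene between their counts was 4.97, against 52.6 for MSC-TPr 2 and 3, the next closest pair. The SDs and p-values over these 4 libraries rest on this spread, which may be technical. MSC-TPr 1 against Ctl MSC 1 went the other way, with log2 differences of −2.33 for Psmb8, −2.38 for Psmb9, −1.60 for Psmb10, −1.14 for Psme1 and −1.13 for Psme2. This last pair has no replicate.

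The high libraries of these genes, Ctl MSC 1 and MSC-TPr 2 and 3, were also those with high cell division genes. With the mean of the cell division list as a covariate over 6 libraries, Psmb8 was lower in the libraries labelled MSC-TPr by a log2FC of −0.91 (SE 0.210, edgeR adjusted p = 0.0308). Psmb9 gave −1.13 (SE 0.321, edgeR adjusted p = 0.0546), Psmb10 −0.38 (SE 0.203, edgeR adjusted p = 0.244), Psme1 −0.27 (SE 0.128, edgeR adjusted p = 0.196) and Psme2 −0.31 (SE 0.192, edgeR adjusted p = 0.298). In that fit 1 of the 5 genes was called, where 12.2% of all genes tested were called. The covariate was high in Ctl MSC 1 and MSC-TPr 2 and 3 and low in the other libraries, with little spread within either set. Each set holds only 1 library of one of the labels, Ctl MSC 1 or MSC-TPr 1. The label differences in the fit with the covariate therefore rested largely on these libraries, whose labels were not tested. The sign of each of the 5 genes thus depended on which libraries were compared.

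**Figure D2:**
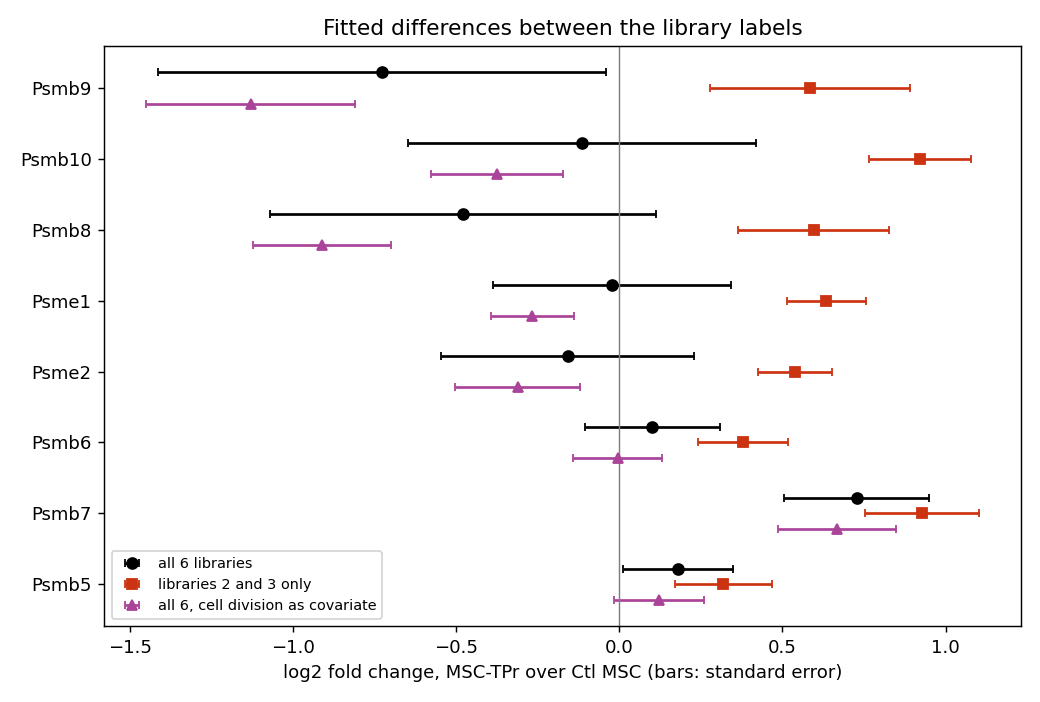
Fitted log2FC of MSC-TPr over Ctl MSC (horizontal axis, bars are 1 standard error) for the 5 genes tested and the 3 constitutive subunits, from all 6 libraries (circles), libraries 2 and 3 only (squares) and all 6 with the cell division covariate (triangles). The 5 inducible and PA28 genes lie below 0 over 6 libraries and above 0 over 4, while Psmb7 lies above 0 in all 3 fits.

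Each inducible subunit was compared with the constitutive subunit whose place it takes. Levels were set side by side per kilobase of exon. By CPM per kilobase averaged over the 6 libraries, the order was Psmb5 (155.7), Psmb6 (67.5), Psmb7 (51.1), Psme2 (34.3), Psme1 (18.8), Psmb10 (8.44), Psmb8 (1.94), Psmb9 (0.364) and Psmb11 (0.0371). The levels of Psmb5 (129.2 to 187.7) lay above all others in every library. The ranges over libraries of Psmb6 (53.4 to 81.6) and Psmb7 (31.1 to 72.2), of Psmb7 and Psme2 (23.3 to 59.7), and of Psme2 and Psme1 (13.1 to 28.8) overlapped, as did those of Psme1 and Psmb10 (4.93 to 16.2). Psmb10 lay above Psmb8 (0.775 to 4.04) in level without overlap, and Psmb8 overlapped Psmb9 (0.152 to 0.916) at its lower end. All of these lay above Psmb11 (0.00978 to 0.0737). Lengths come from all annotated exons, so a gene with long rarely used exons is understated.

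Psmb10 reached 33.2, 16.5 and 14.1 reads per kilobase for 100 of Psmb7 in Ctl MSC 1 to 3, against 8.10, 14.0 and 16.8 in MSC-TPr 1 to 3. Psmb8 reached 2.44, 1.02 and 1.0 for 100 of Psmb5 in Ctl MSC and 0.489, 0.904 and 1.62 in MSC-TPr, again in the order of the library numbers. Psmb9 reached 1.13, 0.420 and 0.394 for 100 of Psmb6 in Ctl MSC and 0.252, 0.433 and 0.505 in MSC-TPr. In all 3 pairs Ctl MSC 1 was the highest library and MSC-TPr 1 the lowest, and the groups overlapped. The log2 ratio differed between the labels by −0.68 for Psmb10 to Psmb7 (exact two-sided permutation p = 0.4), −0.60 for Psmb8 to Psmb5 (exact p = 0.4), −0.59 for Psmb9 to Psmb6 (exact p = 0.6) and −0.04 for Psmb11 to Psmb5 (exact p = 1.0). Adjusted over these 4 ratios, the exact p was 0.8 for the first 3 and 1.0 for the last.

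**Figure D3:**
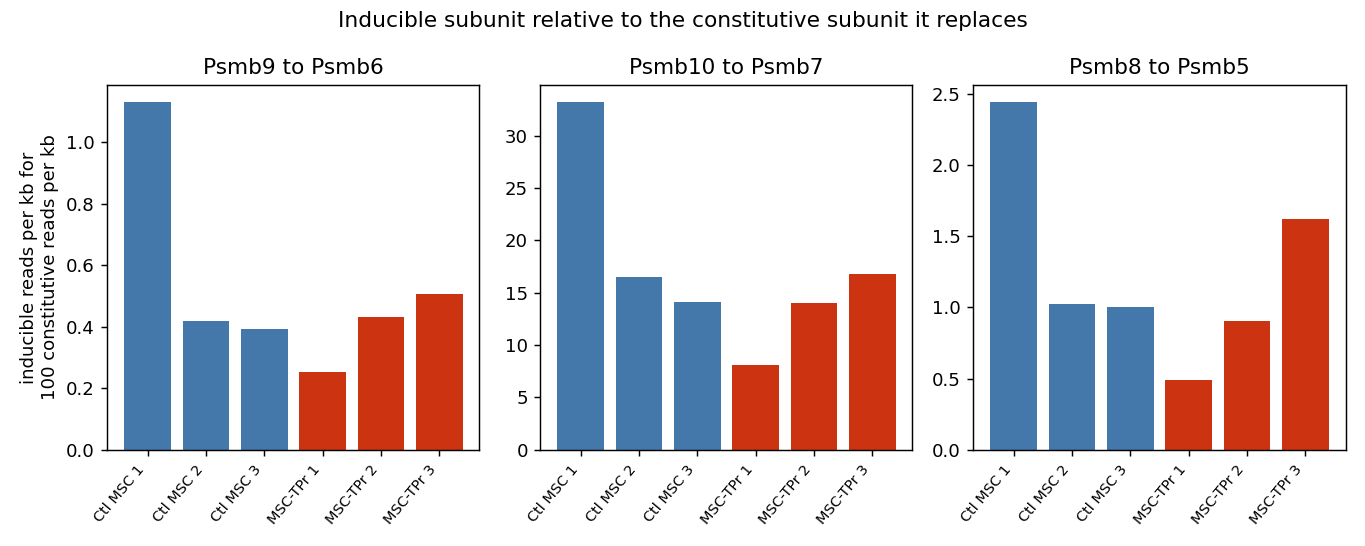
Reads per kilobase of Psmb9, Psmb10 and Psmb8 for 100 reads per kilobase of the constitutive subunit each replaces (vertical axes, starting at 0), by library (Ctl MSC blue, MSC-TPr red). Each bar is 1 library, and Ctl MSC 1 is the highest and MSC-TPr 1 the lowest in every panel.

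Among the constitutive subunits, Psmb7 had another order of libraries than the inducible genes. Psmb7 (β2) measured 166, 106 and 120 CPM for Ctl MSC 1 to 3 and 224, 247 and 184 CPM for MSC-TPr 1 to 3. All 3 MSC-TPr libraries exceeded all 3 Ctl MSC libraries, as was so for 1387 of the 11974 genes tested. The log2FC of Psmb7 was 0.73 (6 libraries, SE 0.223, edgeR adjusted p = 0.220) and 0.93 (4 libraries, SE 0.174, edgeR adjusted p = 0.00794). Over the 4 libraries 20.6% of all genes tested were called higher. Exons of Psmb7 overlap those of Nek6 on the opposite strand. Psmb5 (β5) ranged from 116 to 149 CPM (Ctl MSC) and from 135 to 169 CPM (MSC-TPr), and Psmb6 (β1) measured 99.9 to 153 and 119 to 150 CPM. Their log2FC values over 6 libraries were 0.18 (SE 0.167, edgeR adjusted p = 0.664) and 0.10 (SE 0.207, edgeR adjusted p = 0.858).

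The other activators, the inhibitor and the assembly factors of the proteasome were read from a list of 8 genes, all of which were tested. Over 6 libraries 0 of 8 were called by edgeR or DESeq2, beside 0.426% of the genes tested by edgeR and 683 of 16807 genes by DESeq2. The median log2FC of the list was 0.17. With edgeR 1 of 8 had an unadjusted p under 0.05, beside 1801 of the 11974 genes tested. Psme4 (PA200), a nuclear activator, measured 267, 359 and 357 CPM for Ctl MSC 1 to 3 and 485, 366 and 404 CPM for MSC-TPr 1 to 3. These groups did not overlap, as for 1387 of the 11974 genes tested that lay higher. Its log2FC was 0.34 over 6 libraries (edgeR adjusted p = 0.457) and 0.10 over 4 (edgeR adjusted p = 0.503). Psme3 (PA28γ), the nuclear relative of the PA28 chains that does not need interferon, had 182 to 204 CPM and 200 to 246 CPM (log2FC 0.22 over 6 libraries, edgeR adjusted p = 0.543). Over the 4 libraries the assembly factors Pomp and Psmg1 were called higher, with log2FC values of 0.53 (edgeR adjusted p = 0.0247) and 0.61 (edgeR adjusted p = 0.0163). These 2 of 8 are close to the 20.6% of all genes called higher there, so the count is no result about the list. The remaining genes of the list, Psmf1, Psmg2, Psmg3 and Psmg4, had log2FC values from −0.60 to 0.12 over 6 libraries.

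The genes that handle peptides after the proteasome include Tap1, whose exons overlap those of Psmb9. Tap1, a chain of the peptide transporter into the endoplasmic reticulum, measured 20.4, 10.2 and 11.3 CPM for Ctl MSC 1 to 3 and 10.6, 7.76 and 13.2 CPM for MSC-TPr 1 to 3 (log2FC −0.42, edgeR adjusted p = 0.616). Ctl MSC 1 was the highest library, as for Psmb9 and Psmb8 beside it. Of the 11 genes on the list, 0 were called over 6 libraries by edgeR or DESeq2. Of all genes, edgeR called 0.426% of those tested and DESeq2 683 of 16807. With edgeR 1 had an unadjusted p under 0.05, beside 1801 of the 11974 genes tested, and 10 log2FC values were negative, with a median of −0.25 over the list. Tap2, the partner chain, was the positive one at 0.49 (edgeR adjusted p = 0.356). Over the 4 libraries, 4 of 11 were called lower, where 19.4% of all genes tested were. These were the class I genes H2-K1 (−0.93, edgeR adjusted p = 0.00176) and H2-D1 (−0.68, edgeR adjusted p = 0.00467), their light chain gene B2m (−0.57, edgeR adjusted p = 0.0152) and Nlrc5, a transactivator of class I genes (−1.26, edgeR adjusted p = 0.00405). In those same 4 libraries Psmb10, Psme1 and Psme2 were higher, so these genes of the class I pathway had opposite signs there.

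The interferon state of each library was read from 26 antiviral interferon-stimulated genes and 26 interferon-γ response genes, of which 24 had reads, with none of the 6 subunit genes among them. The mean log2 CPM of the antiviral list was 4.97, 3.64 and 3.67 for Ctl MSC 1 to 3 and 1.66, 1.74 and 1.60 for MSC-TPr 1 to 3. The interferon-γ list measured 1.84, 0.85 and 0.91 for Ctl MSC, against −0.12, −0.32 and −0.05 for MSC-TPr. Ctl MSC 1 was the highest library for both lists, and all 3 MSC-TPr libraries were below all 3 Ctl MSC libraries. The labels differed by −2.43 for the antiviral and by −1.36 for the interferon-γ list, each with an exact two-sided permutation p of 0.1, the smallest that 3 libraries against 3 can give. In bulk RNA, fewer cells with such transcripts and less of them in each cell cannot be told apart.

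Of the 25 antiviral genes tested over 6 libraries, all 25 had negative log2FC values, with a median of −2.71. Of these, 4 were called lower (Rsad2, Oasl2, Usp18 and Ifi44, named after their values were seen), where 0.401% of all genes tested were called lower. An unadjusted p under 0.05 occurred for 24, beside 1801 of the 11974 genes tested, and DESeq2 called 23 of 26 lower, beside 439 of 16807 genes. Without Ctl MSC 2, Ctl MSC 3 or MSC-TPr 3, edgeR called 0 genes of the whole table. The groups did not overlap, lower in MSC-TPr, in 23 of the 25 antiviral genes against 11.4% of all genes tested. Over the 4 libraries 23 of 25 were called lower, against 19.4% of all genes tested there. Bst2, which tethers budding viruses to the cell, measured 199, 136 and 150 CPM for Ctl MSC 1 to 3 and 69.4, 46.8 and 39.9 CPM for MSC-TPr 1 to 3. Ifit3 measured 134, 62.8 and 66.4 CPM and 18.8, 12.8 and 9.09 CPM in the same order, and Ifit1 184, 39.9 and 43.9 CPM and 7.86, 14.7 and 18.7 CPM. Both belong to the IFIT family that acts on foreign RNA, and in all 3 genes the groups lay apart. Ddx58, the RNA sensor RIG-I, had a log2FC of −2.11 (edgeR adjusted p = 0.0697) and Ifit2 one of −0.91 (edgeR adjusted p = 0.104).

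Of the 16 interferon-γ response genes tested over 6 libraries, all 16 had negative log2FC values with a median of −2.52, and the groups did not overlap in 13, where 11.4% of all genes tested lay lower without overlap. None was called by edgeR, 12 had an unadjusted p under 0.05 beside 1801 of the 11974 genes tested, and DESeq2 called 11 lower beside 439 of 16807 genes. Over the 4 libraries, 13 of 17 were called lower by edgeR, against 19.4% of all genes. The guanylate-binding proteins Gbp2 (39.9, 9.37 and 9.73 CPM for Ctl MSC, 3.96, 3.0 and 4.26 CPM for MSC-TPr) and Gbp7 and the GTPase Irgm2 had log2FC values from −2.55 to −2.20, and Irgm1 one of −0.96 (edgeR adjusted p = 0.293). Irf1, a transcription factor that drives genes of the immunoproteasome, went otherwise. It measured 59.6, 21.6 and 21.6 CPM for Ctl MSC 1 to 3 and 14.6, 21.6 and 25.7 CPM for MSC-TPr 1 to 3, so that MSC-TPr 2 and 3 lay at or above Ctl MSC 2 and 3. Its log2FC was −0.75 (edgeR adjusted p = 0.503) over 6 libraries and 0.13 (edgeR adjusted p = 0.472) over 4.

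Among 13 interferon receptors and signal carriers, edgeR called 0 over 6 libraries, where it called 0.426% of all genes tested. An unadjusted p under 0.05 occurred for 4 of the 13, beside 1801 of the 11974 genes tested. Stat2 and Irf9 were among the 3 that DESeq2 called lower, beside 439 of 16807 genes. Stat2 and Irf9, which act together on the ISRE, had log2FC values of −1.57 (edgeR adjusted p = 0.0731) and −1.29 (edgeR adjusted p = 0.121). In both genes the groups did not overlap, lower in MSC-TPr, as for 11.4% of all genes tested. Stat2 measured 50.8 to 82.1 CPM for Ctl MSC against 17.4 to 24.9 CPM for MSC-TPr. The interferon-γ receptor chains Ifngr1 and Ifngr2 had log2FC values of −0.33 and 0.22, and Ifnar1, of the type I receptor, −0.50 (edgeR adjusted p = 0.297). Of 7 interferon genes, 5 had no read in any library. Ifnb1 had 1 read in Ctl MSC 3, MSC-TPr 2 and MSC-TPr 3, and Ifng had 1 read in MSC-TPr 3.

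The subunit genes and the interferon lists were then set side by side as deviations in log2 CPM from the mean of the 6 libraries. In Ctl MSC 1 all were high, with 1.23 for Psmb8, 1.49 for Psmb9, 1.08 for Psmb10, 0.68 for Psme1, 0.88 for Psme2, 2.09 for the antiviral and 1.32 for the interferon-γ list. In Ctl MSC 2 and 3 the antiviral list lay at 0.76 and 0.79, while the 5 subunit genes lay from −0.62 to −0.27. In MSC-TPr 1 both were low, with the antiviral list at −1.22 and the 5 genes from −1.10 to −0.25. In MSC-TPr 2 and 3 the antiviral list lay at −1.14 and −1.28, while the 5 genes lay from −0.01 to 0.51. The 5 subunit genes thus shared Ctl MSC 1 as the highest library with both interferon lists, and like both lists they lay below their mean in MSC-TPr 1. The lists themselves were lowest elsewhere, the antiviral list in MSC-TPr 3 and the interferon-γ list in MSC-TPr 2 (−0.84). In the 4 libraries numbered 2 and 3, Psmb9, Psmb10, Psme1 and Psme2 deviated with the opposite sign to the antiviral list, as did Psmb8 in all of them but MSC-TPr 2.

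**Figure D4:**
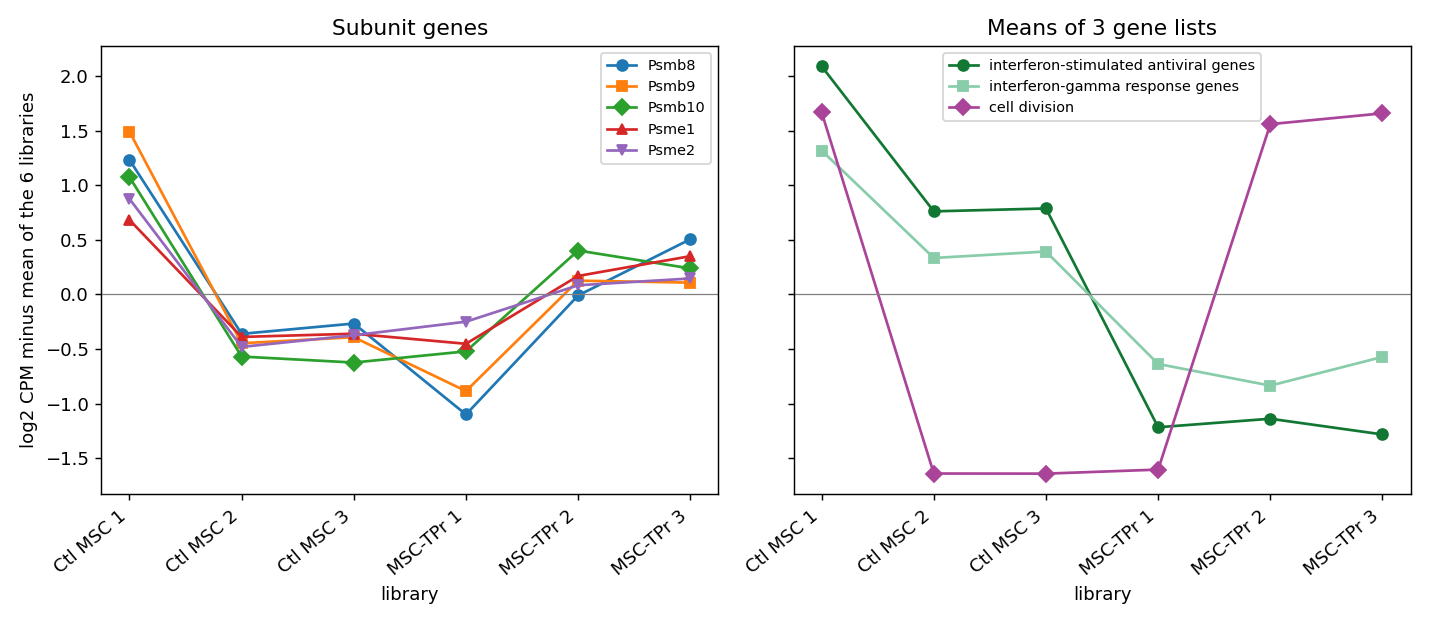
Deviation of log2 CPM from the mean of the 6 libraries (vertical axis, shared) by library (horizontal axis) for the 5 subunit genes tested (left) and for the means of the antiviral, interferon-γ and cell division lists (right). Both interferon lists fall from Ctl MSC to MSC-TPr in every library, the subunit genes are low in Ctl MSC 2, Ctl MSC 3 and MSC-TPr 1, and the cell division list is high in Ctl MSC 1, MSC-TPr 2 and MSC-TPr 3.

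The antiviral list fell into separate clusters of libraries, with a gap of 1.90 between them, and no correlation with it is given. For the interferon-γ list, Pearson's r over the 6 libraries was 0.55 for Psmb8, 0.603 for Psmb9, 0.295 for Psmb10, −0.32 for Psmb11, 0.295 for Psme1 and 0.415 for Psme2. The exact permutation p ran from 0.199 to 0.557, and each was 0.557 when adjusted over the 6 genes. Spearman's rho ran from −0.60 to 0.371, with exact permutation p from 0.242 to 0.919 and 0.919 when adjusted. Without Ctl MSC 1 and MSC-TPr 2, the libraries farthest from the median of the list, r was 0.035 for Psmb8, 0.00547 for Psmb9, −0.61 for Psmb10, 0.19 for Psmb11, −0.452 for Psme1 and −0.755 for Psme2. The positive Pearson values of the 5 inducible and PA28 genes over 6 libraries thus did not hold once both libraries were left out together. Ctl MSC 1 lay above the mean of the libraries on the list (1.32) and in all 5 genes. MSC-TPr 2 lay below it on the list (−0.84) but above it for Psmb9, Psmb10, Psme1 and Psme2. Neither library was left out alone for these correlations. Spearman's rho without them was 0.4 for Psmb8, Psmb9 and Psme1, −0.8 for Psmb10 and −0.6 for Psme2. Over so few libraries a rho of 0.4 cannot tell whether the positive ranks of these 3 genes rested on the libraries left out.

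Relative to the antiviral list, in log2 CPM minus the mean of the list in the same library, all 3 MSC-TPr libraries exceeded all 3 Ctl MSC libraries for all 5 genes, with differences from 1.99 for Psmb9 to 2.50 for Psmb10. The same held for 93.3% of all genes tested, so it is no property of these genes. Against the interferon-γ list it held for Psmb10, Psme1 and Psme2 and for 78.4% of all genes tested, while Psmb8 and Psmb9 overlapped. This comparison was chosen once the values above were known.

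The genes whose log2 CPM followed each subunit gene most closely over the 6 libraries were named as a description. For Psmb8 these were Vcam1 (r = 0.999), an adhesion molecule of stromal cells, Pros1 and Serp2, and for Psmb9 they were Sumo2 (r = 0.999), Psip1 and Gpatch11. For Psmb10 they were Cox18 (r = 0.999), Rpa1 and Ptrf, and for Psme1 they were Hadha (r = 0.998) and Ppp1r7. For Psme2 they were Aldh16a1 (r = 0.996), Skap2 and Spag7. None of the genes named here is on either interferon list. Vcam1 measured 81.9, 46.3 and 48.1 CPM for Ctl MSC 1 to 3 and 36.5, 53.1 and 61.7 CPM for MSC-TPr 1 to 3, and Rpa1, a protein of DNA replication and repair, 324, 121 and 123 CPM and 127, 218 and 207 CPM. All values of r come from the same 6 libraries and carry no p.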

How the data were processed

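The 6 RNA-seq libraries, 3 per label, were each used as 1 replicate. Per the labels the authors' processing used CASAVA 1.8.2, Trimmomatic 0.35 and TopHat2 2.1.0 on mm10, and the deposited values are raw read counts per gene that the authors made with HTSeq-count, which leaves out reads aligning to several places. Its 5 summary entries were excluded, which left 79.2% to 86.2% of the listed reads, and 16807 genes had reads.

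Counts were fitted in R 4.3.3 with edgeR 4.0.16 (TMM, filterByExpr, quasi-likelihood test, group as the only term, Benjamini-Hochberg over all genes). A call needed an adjusted p under 0.05 together with a log2 fold change (log2FC) of size 0.5 or more. CPM in lists are log2 with a prior count of 2, and ratios add 0.5 to each count. DESeq2 1.42.0 was an alternative. Of 200 genes changed 4-fold in simulated counts, edgeR found 181 with 6 false calls (6 libraries, 12010 genes) and 199 with 10 false calls (4 libraries, 12083 genes). DESeq2 found 179 with 19 false calls and 194 with 5. The simulated counts had the same dispersion for every gene and no difference in cell division between libraries. They checked the code and do not give the power for the smaller differences reported here. Exact permutation tests used scipy 1.17.1. Gene positions and exon lengths came from the mm10 annotation (GENCODE).

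The genes and gene lists were chosen with earlier results of these data known. The genes named are the 6 genes, the 3 constitutive subunits, those of the lists of activators, peptide handling, receptors and interferons, the 5 highest of each interferon list, and the 3 nearest to each subunit gene with a mean log2 CPM of at least 1, of which some are not reported here.

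Library numbers come from the labels. Libraries of the same number deviated from their groups with correlations of −0.76, −0.59 and −0.60 across genes, so the numbers were not taken as pairs. Alternatives were RLE and upper quartile normalization, other filters, DESeq2, a replicate block, the cell division covariate, leaving out each library, and libraries 2 and 3 only.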

Additional observations from a re-analysis of the deposited data

How the results depend on the processing

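Over all 6 libraries 51 genes were called. This count was 31 with at least 10 counts in every library, 683 with DESeq2, 1458 with the cell division covariate and 4854 over libraries 2 and 3 only. Leaving out each library gave 0 to 108 genes, with 108 without Ctl MSC 1, 44 without MSC-TPr 1, 1 without MSC-TPr 2 and 0 without Ctl MSC 2, Ctl MSC 3 or MSC-TPr 3. Of the 5 subunit genes tested, 1 was called with the covariate and 3 over libraries 2 and 3, and 0 under the other alternatives run. With the replicate block 0 genes were called (776 at an unadjusted p under 0.05), and Psmb10 and Psme1 had log2 fold changes of 0.11 and 0.048, opposite in sign to the fit without it. Every library correlated better with a differently numbered library than with its own number.

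Over libraries 2 and 3 the sign turned for Psmb8 (0.60), Psmb9 (0.59), Psmb10 (0.92), Psme1 (0.63) and Psme2 (0.54), and for the log2 ratios of Psmb9 to Psmb6 (0.20), Psmb10 to Psmb7 (0.0051) and Psmb8 to Psmb5 (0.25). With each library left out, the log2 fold change ran from −0.87 to 0.25 for Psmb8, −1.06 to 0.30 for Psmb9, −0.40 to 0.69 for Psmb10, −0.21 to 0.43 for Psme1, −0.39 to 0.42 for Psme2 and −0.019 to 0.31 for Psmb6, which was −0.0050 with the covariate. All 5 were positive without Ctl MSC 1, and Psmb10 (0.12) and Psme1 (0.18) also without MSC-TPr 1. The ratio of Psmb11 to Psmb5 ran from −0.46 to 0.60. The cause was not tested.

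Normalization and filters kept the sign of all 5 genes, and both interferon lists kept their sign under all 9 alternatives each. Psmb11 had 1 to 6 and Psmb9 10 to 56 reads per library, so counting error is large for both.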
